A study of Mus musculus with 8 samples.

Results

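T cells, natural killer (NK) cells and B cells, the lymphocytes, were followed in whole liver RNA through 9 marker genes, Cd3e, Cd3d, Cd8a, Cd4, Nkg7, Gzma, Gzmb, Ms4a1 and Cd79a, out of 49585 genes in the count table. The genes were taken by name, and all 9 were found through their Ensembl identifiers. Livers of 8 male mice were compared, 3 LP+/+, 2 LPfl/+ and 3 LP245/+, each 1 animal, after 3 months on a high-fat, choline-deficient (HFCD) diet that began at day 21. LP245/+ mice carried Alb-CreTG and Trp53wm-R245W/+, an allele that makes wild-type p53 until Cre converts it to the R245W mutant. LPfl/+ mice carried Alb-CreTG and Trp53fl/+, so that Cre deleted 1 Trp53 allele. LP+/+ mice were Cre-negative (Alb-Cre0) by their sample labels, which were followed here although the study's text gives this group as Alb-Cre carriers with unaltered Trp53, and replicates 1 and 2 carried an unrecombined Trp53fl/+ allele while replicate 3 carried an unrecombined Trp53wm-R245W/+ allele. Alb-Cre acts in hepatocytes and cholangiocytes, so lymphocytes were not recombined in any of the 3 groups. The study asked how p53 loss and p53R245W alter the premalignant liver, and the markers were read as a measure of lymphocyte content.

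T cells recognise antigen through a receptor that signals through the CD3 chains. Helper T cells also carry the co-receptor CD4 and cytotoxic T cells the co-receptor CD8. NK cells and cytotoxic T cells kill targets by releasing granules that hold perforin and granzymes, which are serine proteases. B cells carry CD20 and a receptor that signals through CD79 chains. The liver holds many resident NK and T cells among the hepatocytes, and lymphocytes accumulate in portal areas and lobules in steatohepatitis. In RNA of whole liver, fewer cells of a type and less RNA per cell cannot be told apart.

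The libraries held 26304526 to 31370714 counts each, and 16496 genes had enough counts to be tested with edgeR. Trp53, the targeted gene, had 215 to 269 counts in LP+/+, 125 to 176 in LPfl/+ and 190 to 306 in LP245/+, so both LPfl/+ livers were below every other liver. Hepatocyte genes led the RNA, with a mean level for Alb of 38398 CPM (read counts scaled to a common library size) per kilobase of exon. By the library numbers in the labels, the libraries form 2 series: all LP245/+ livers and LP+/+ replicates 2 and 3 are in the first, and LP+/+ replicate 1 and both LPfl/+ livers are in the second. No series held both LP245/+ and LPfl/+ livers, so series and genotype cannot be told apart in that comparison.

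Promoters were printed for the CD3 and the granzyme genes, because they let the 2 chains of one complex and the 2 proteases of one granule be set side by side. RefSeq promoters of assembly GRCm38.p6 were matched for 7 of the 9 markers, and Cd4 and Ms4a1 were the exceptions. The windows end at the base before the RefSeq start or the start in the GENCODE annotation, whichever lies further upstream. That of Cd3e is therefore 234 bases long and the others 250. The sequence after the RefSeq start of Gzmb was not found in its GENCODE transcripts. Capitals mark matches on either strand to GGAAGT (ETS), TGTGGT (RUNX) or TGANTCA (AP-1), which did not overlap. Cd3d (chr9:44981536-44981785, plus strand) and Cd3e (chr9:45009628-45009861, minus strand) lie near each other and are transcribed in opposite directions, and Gzma (chr13:113100982-113101231, minus strand) and Gzmb (chr14:56262335-56262584, minus strand) are on different chromosomes.
Cd3d: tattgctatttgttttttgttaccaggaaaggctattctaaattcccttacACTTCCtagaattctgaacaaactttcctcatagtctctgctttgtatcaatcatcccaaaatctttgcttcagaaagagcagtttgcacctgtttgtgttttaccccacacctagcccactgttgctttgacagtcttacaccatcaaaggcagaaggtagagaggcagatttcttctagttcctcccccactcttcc
Cd3e: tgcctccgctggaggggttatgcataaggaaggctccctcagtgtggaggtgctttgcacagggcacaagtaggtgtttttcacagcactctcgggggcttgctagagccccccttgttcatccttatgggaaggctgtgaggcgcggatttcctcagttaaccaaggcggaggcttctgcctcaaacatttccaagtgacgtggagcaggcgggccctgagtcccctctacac
Gzma: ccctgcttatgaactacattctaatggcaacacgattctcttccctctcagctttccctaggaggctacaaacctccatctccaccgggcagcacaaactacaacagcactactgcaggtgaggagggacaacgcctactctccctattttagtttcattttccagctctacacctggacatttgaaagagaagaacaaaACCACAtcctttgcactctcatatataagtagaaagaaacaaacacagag
Gzmb: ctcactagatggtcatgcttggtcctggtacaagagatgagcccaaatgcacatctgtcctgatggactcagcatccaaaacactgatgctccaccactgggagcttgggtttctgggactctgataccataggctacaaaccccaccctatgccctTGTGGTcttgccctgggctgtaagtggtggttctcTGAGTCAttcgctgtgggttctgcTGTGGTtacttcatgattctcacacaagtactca
The Cd3d window held 1 ETS match and the Cd3e window held 0 matches to the 3 motifs. Gzma held 1 RUNX match, and Gzmb held 2 RUNX matches and 1 AP-1 match. Of 32851 promoter windows of 250 bases, 19.7% held an ETS match, 14.0% a RUNX match and 6.75% an AP-1 match, so such matches are common and are given as a description only. The E box CANNTG, not in capitals here, was in 66.2% of the windows and in all 4 printed ones.

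All 9 markers were scarce, and each had at least 1 count in all 8 livers. Of the 72 values, 6 were at or under 3 counts, the floor taken for detection, in Cd3e, Cd3d, Cd8a and Gzma, and 0 were 0. The markers had 1088 counts over the 8 livers, of which Cd4 had 481, or 44.2%. Per length, as CPM per kilobase over 8 livers, Cd4 had the highest mean level, 0.522 ± 0.328 (SD), followed by Nkg7 at 0.414 ± 0.184 and Gzma at 0.307 ± 0.120. Cd79a at 0.261 ± 0.0706 and Gzmb at 0.256 ± 0.114 came next, ahead of Cd3d at 0.120 ± 0.0785. The lowest levels were those of Ms4a1 at 0.0861 ± 0.0404, Cd8a at 0.0754 ± 0.0398 and Cd3e at 0.0487 ± 0.0281. Ranges overlapped between every pair of neighbours in this order, although Gzmb was above Cd3d in 8 of 8 livers and Nkg7 above Gzma in 7. The median level of the 9 markers was 0.256, against 2.27 for the 10 pan-leukocyte genes, 19.1 for the 12 Kupffer cell and macrophage genes and 864 for the 8 hepatocyte genes, all in CPM per kilobase.

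**Figure D1:**
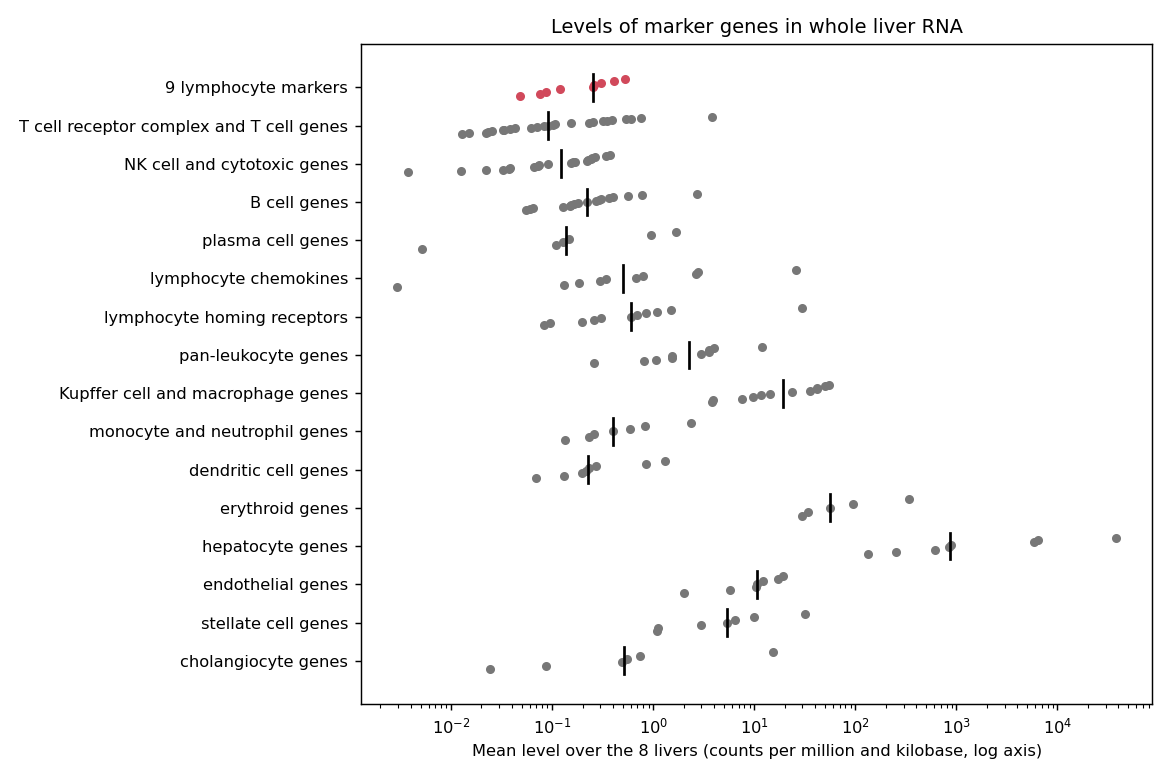
Mean level of each gene over the 8 livers in CPM per kilobase, on a log axis, by gene list (genes at 0 in every liver are not drawn). Points are genes and black lines the list medians, and the 9 lymphocyte markers (red) lie between 0.0487 and 0.522, below all 8 hepatocyte genes and all 12 Kupffer cell genes.

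Cd3e and Cd3d encode chains of the T cell receptor complex. Cd3e (chr9:44998740-45009627, minus strand, GRCm38) had 6, 3 and 4 counts in LP+/+ livers, 13 and 5 in LPfl/+ livers and 6, 4 and 4 in LP245/+ livers. LPfl/+ replicate 1 stood above the other livers, and the groups overlapped in every comparison. Antisense and same-strand gene models overlap Cd3e, and how reads were assigned by strand is not given in the sources used here. Cd3d (chr9:44981786-44987339, plus strand) had 13, 3 and 11 counts in LP+/+ livers, 6 and 7 in LPfl/+ livers and 7, 1 and 2 in LP245/+ livers. Its lowest values were in LP245/+ replicates 2 and 3, but LP+/+ replicate 2 was also at the floor. Neither gene passed edgeR's filter, so their fold changes come from the fit without it. In that fit the log2 fold change of Cd3d in LP245/+ against LP+/+ was -1.30 (SE 0.73), with an adjusted p of 0.872 (edgeR quasi-likelihood test, Benjamini-Hochberg). For Cd3e in LPfl/+ against LP+/+ it was 1.12 (SE 0.72), with an adjusted p of 0.895 in edgeR. Neither difference passed the test.

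Cd8a, which encodes a chain of the co-receptor of cytotoxic T cells (chr6:71373427-71379173, plus strand), had 7, 13 and 9 counts in LP+/+ livers, 13 and 5 in LPfl/+ livers and 5, 1 and 10 in LP245/+ livers. LP245/+ replicate 2 was the lowest liver, with a single count, and LP245/+ replicate 3 lay within the range of the LP+/+ livers. In LP245/+ against LP+/+ the log2 fold change was -0.74 (SE 0.68; 95% interval -2.26 to 0.78), and in LPfl/+ against LP+/+ it was -0.01 (SE 0.71; -1.60 to 1.57). The mean level was 0.325 ± 0.103 CPM in LP+/+ (SD, n = 3), 0.322 ± 0.203 in LPfl/+ (n = 2) and 0.192 ± 0.161 in LP245/+ (n = 3).

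Cd4, the co-receptor of helper T cells (chr6:124864692-124888221, minus strand), had 148, 40 and 33 counts in LP+/+ livers, 60 and 72 in LPfl/+ livers and 63, 28 and 37 in LP245/+ livers. LP+/+ replicate 1 stood far above the other 7 livers, at 5.03 CPM (exact Poisson 95% interval 4.25 to 5.91), and the groups overlapped in all 3 comparisons. The log2 fold change was -0.68 (SE 0.55; 95% interval -1.92 to 0.55) in LP245/+ against LP+/+, -0.08 (SE 0.60; -1.42 to 1.27) in LPfl/+ against LP+/+ and -0.61 (SE 0.61; -1.98 to 0.76) in LP245/+ against LPfl/+. Both signs against LP+/+ turned when 1 liver was left out. Without LP+/+ replicate 1, the log2 fold change of Cd4 was 0.34 in LP245/+ against LP+/+ (edgeR adjusted p = 0.899) and 0.95 in LPfl/+ against LP+/+ (edgeR adjusted p = 0.375), the second at an unadjusted p under 0.05. Without LPfl/+ replicate 1 it was 0.040 in LPfl/+ against LP+/+. Cd4 also moved with the series of library numbers, from 1.42 ± 0.522 CPM in the first series (SD, n = 5) to 3.25 ± 1.55 in the second (n = 3). The second series holds LP+/+ replicate 1, so the part of the series cannot be told apart from that of this liver. With the series as a covariate the log2 fold change was 0.34 in LP245/+ against LP+/+. It was -1.09 in LPfl/+ against LP+/+ and 1.43 in LP245/+ against LPfl/+ in that fit. Within the first series the mean Cd4 level was 1.55 CPM in LP245/+ and 1.22 in LP+/+. Within the second it was 2.36 in LPfl/+ and 5.03 in the single LP+/+ liver. That liver had 6 counts of Cd3e, 13 of Cd3d and 2 of Trac, a T cell receptor gene with up to 22 counts in other livers. Whether the Cd4 reads came from T cells was not tested.

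**Figure D2:**
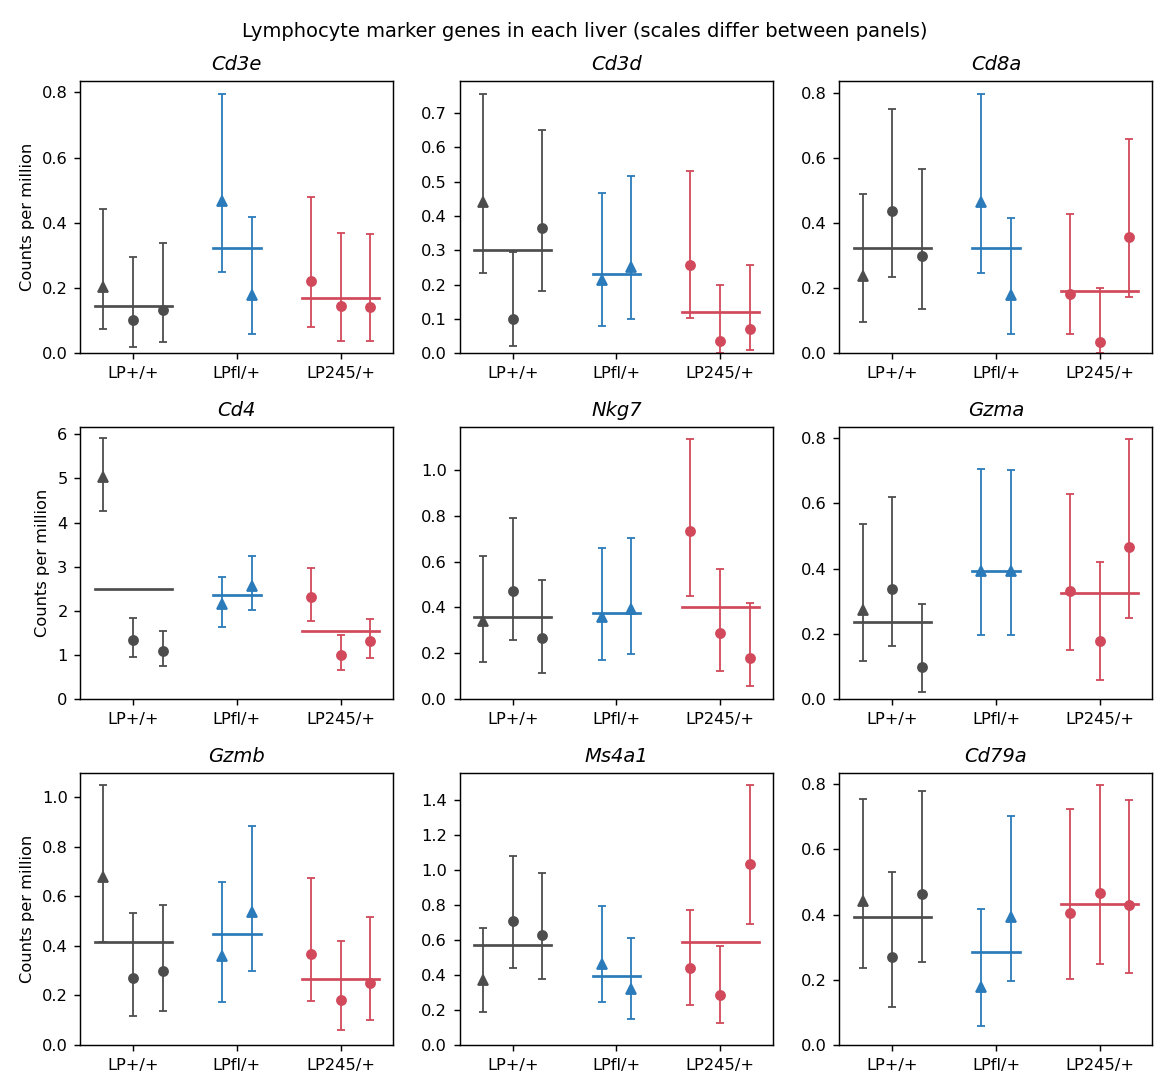
Level of each lymphocyte marker in each liver in CPM (vertical axes, starting at 0 and differing between panels), by genotype, with replicates from left to right. Bars are exact Poisson 95% intervals (counting error only), horizontal lines are group means, circles and triangles are the first and the second series of library numbers, LP245/+ and LP+/+ overlap in all 9 panels, and Cd4 in LP+/+ replicate 1, at 5.03, is clear of the other 7 livers.

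Nkg7, Gzma and Gzmb mark the cytotoxic granules of NK cells and cytotoxic T cells. Nkg7, a granule membrane protein (chr7:43437073-43438249, plus strand), had 10, 14 and 8 counts in LP+/+ livers, 10 and 11 in LPfl/+ livers and 20, 8 and 5 in LP245/+ livers. Its highest and its lowest values were both in LP245/+. The mean levels, 0.359 ± 0.105, 0.375 ± 0.0245 and 0.400 ± 0.294 CPM in LP+/+, LPfl/+ and LP245/+, differed by less than the SD within LP+/+. The log2 fold change in LP245/+ against LP+/+ was 0.15 (SE 0.54; 95% interval -1.05 to 1.35).

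Gzma, which encodes granzyme A (chr13:113093825-113100981, minus strand), had 8, 10 and 3 counts in LP+/+ livers, 11 and 11 in LPfl/+ livers and 9, 5 and 13 in LP245/+ livers. Both LPfl/+ livers were above the 3 LP+/+ livers in CPM, the only marker for which LPfl/+ and LP+/+ did not overlap. Among the 16496 genes tested, 12.6% were higher in both LPfl/+ livers than in all LP+/+ livers. The log2 fold change was 0.73 (SE 0.59; 95% interval -0.58 to 2.04; edgeR adjusted p = 0.816), and in LP245/+ against LP+/+ it was 0.46 (SE 0.54; -0.76 to 1.67).

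Gzmb, which encodes granzyme B (chr14:56258838-56262260, minus strand), had 20, 8 and 9 counts in LP+/+ livers, 10 and 15 in LPfl/+ livers and 10, 5 and 7 in LP245/+ livers. LP+/+ replicate 1 was the highest liver and LP245/+ replicate 2 the lowest, and the groups overlapped. The log2 fold change was -0.64 (SE 0.51; 95% interval -1.78 to 0.50) in LP245/+ against LP+/+ and -0.74 (SE 0.56; -2.00 to 0.51; edgeR adjusted p = 0.767) in LP245/+ against LPfl/+. Within the first series, mean levels in LP245/+ and LP+/+ livers differed by a log2 ratio of -0.09. The 2 granzymes therefore had fold changes of opposite sign in LP245/+ against LP+/+, with intervals that overlap.

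Ms4a1 and Cd79a mark B cells. Ms4a1, which encodes CD20 (chr19:11249675-11266241, minus strand), had 11, 21 and 19 counts in LP+/+ livers, 13 and 9 in LPfl/+ livers and 12, 8 and 29 in LP245/+ livers. Its highest and its lowest counts were both in LP245/+, and the log2 fold change against LP+/+ was 0.05 (SE 0.49; 95% interval -1.06 to 1.15). An antisense gene model spans Ms4a1. Cd79a, a signalling chain of the B cell receptor (chr7:24897381-24902197, plus strand), had 13, 8 and 14 counts in LP+/+ livers, 5 and 11 in LPfl/+ livers and 11, 13 and 12 in LP245/+ livers. The 3 LP245/+ livers were above both LPfl/+ livers in CPM, where 12.1% of all genes tested were higher without overlap. For that comparison the log2 fold change was 0.59 (SE 0.49; 95% interval -0.50 to 1.68; edgeR adjusted p = 0.779), and against LP+/+ it was 0.14 (SE 0.41; -0.78 to 1.06).

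Of the 7 markers that passed the filter, 0 were called in each of the 3 comparisons at a difference of 2-fold or more in either direction (log2 fold change of 1) with an adjusted p no higher than 0.05. In all genes, 0.00606% were called in LP245/+ against LP+/+, 0% in LPfl/+ against LP+/+ and 0% in LP245/+ against LPfl/+. At an unadjusted p under 0.05, again 0 of 7 markers were past the threshold in each comparison, against 5.93%, 6.89% and 8.51% of all genes. DESeq2 also called 0 markers and gave 0 of them an unadjusted p under 0.05. In the comparisons with LPfl/+ livers it gave several markers no adjusted p, so those could not be called there. The median log2 fold change of the 7 markers was 0.05, -0.01 and -0.27 in the same order, beside a median of 0.00 over all genes in each. The first became -0.62 without LP245/+ replicate 1 and -0.60 without LP245/+ replicate 3, and the third became 0.022 without LPfl/+ replicate 1 and 0.018 without LP245/+ replicate 2. Below 0 were 3 of 7 markers (49.4% of all genes), 4 of 7 (50.2%) and 4 of 7 (49.2%). Between LP245/+ and LP+/+, 0 of the 9 markers were free of overlap, where 6.47% of all genes tested were higher and 5.08% lower without overlap. The precision was low: the SEs of the markers ran from 0.41 to 0.68 in LP245/+ against LP+/+, where the median SE of all genes was 0.18. All 7 intervals reached at least a 2-fold difference in 1 direction in every comparison, so a change of that size could not be told from no change at this depth and number of livers.

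**Figure D3:**
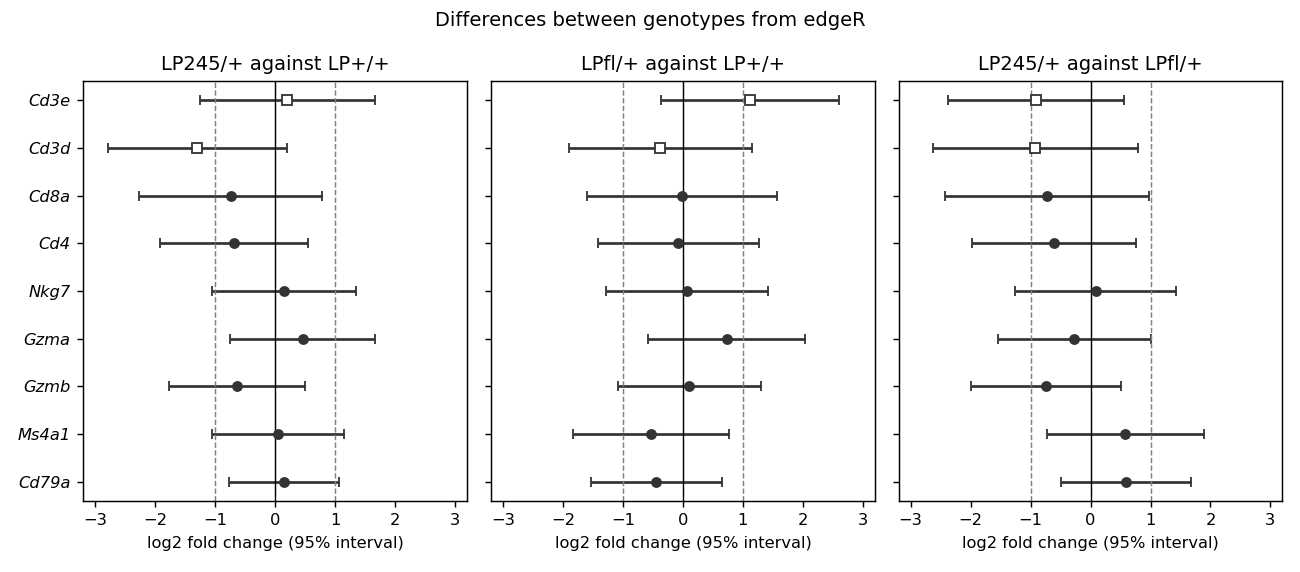
Log2 fold change of each marker (horizontal axis) with its 95% interval from edgeR in the 3 comparisons of genotypes, as filled circles for the 7 markers that passed the filter and open squares for Cd3e and Cd3d, from the fit without it. Dashed lines mark 2-fold, and every interval crosses 0.

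How far livers of 1 genotype differed was read against counting error alone, as the Pearson chi-square of the counts within genotypes over its 5 degrees of freedom, for which counting error gives 1. Cd79a at 0.815, Cd3e at 1.07 and Gzma at 1.47 lay near it. Gzmb at 2.07, Cd3d at 2.55, Cd8a at 2.60, Nkg7 at 2.77 and Ms4a1 at 3.75 were higher. Whether these ratios exceed what counting error gives was not tested. Cd4 was at 26.8, so that livers of 1 genotype differed far more than counting error gives, and LP+/+ replicate 1 was the liver that stood apart.

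Sums over related markers raised the counts per liver. The sets were formed after the values were seen and are given without a test. Cd3e, Cd3d and Cd8a together had 0.772 ± 0.123 CPM in LP+/+ (SD, n = 3), 0.876 ± 0.381 in LPfl/+ (n = 2) and 0.483 ± 0.236 in LP245/+ (n = 3). The cytotoxic set of Nkg7, Gzma and Gzmb had 1.01 ± 0.320, 1.22 ± 0.149 and 0.991 ± 0.402 in the same order, and the B cell pair of Ms4a1 and Cd79a had 0.961 ± 0.139, 0.679 ± 0.0491 and 1.02 ± 0.388. All sets overlapped between LP245/+ and LP+/+. For the B cell pair both LPfl/+ livers were below every other liver, at 20 against 21 counts in the nearest livers. That gap is within counting error. Of all single genes tested, 12.4% were lower in LPfl/+ than in LP+/+ without overlap, and 12.1% lower than in LP245/+. The share below both groups was not counted. Over the 8 markers without Cd4, the sum was 2.74 ± 0.224 in LP+/+, 2.77 ± 0.183 in LPfl/+ and 2.50 ± 0.762 in LP245/+. LP245/+ replicate 2 was the low liver of this sum, with 45 counts or 1.62 CPM (exact Poisson 95% interval 1.18 to 2.16), while the other 7 livers had 74 to 88 counts.

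**Figure D4:**
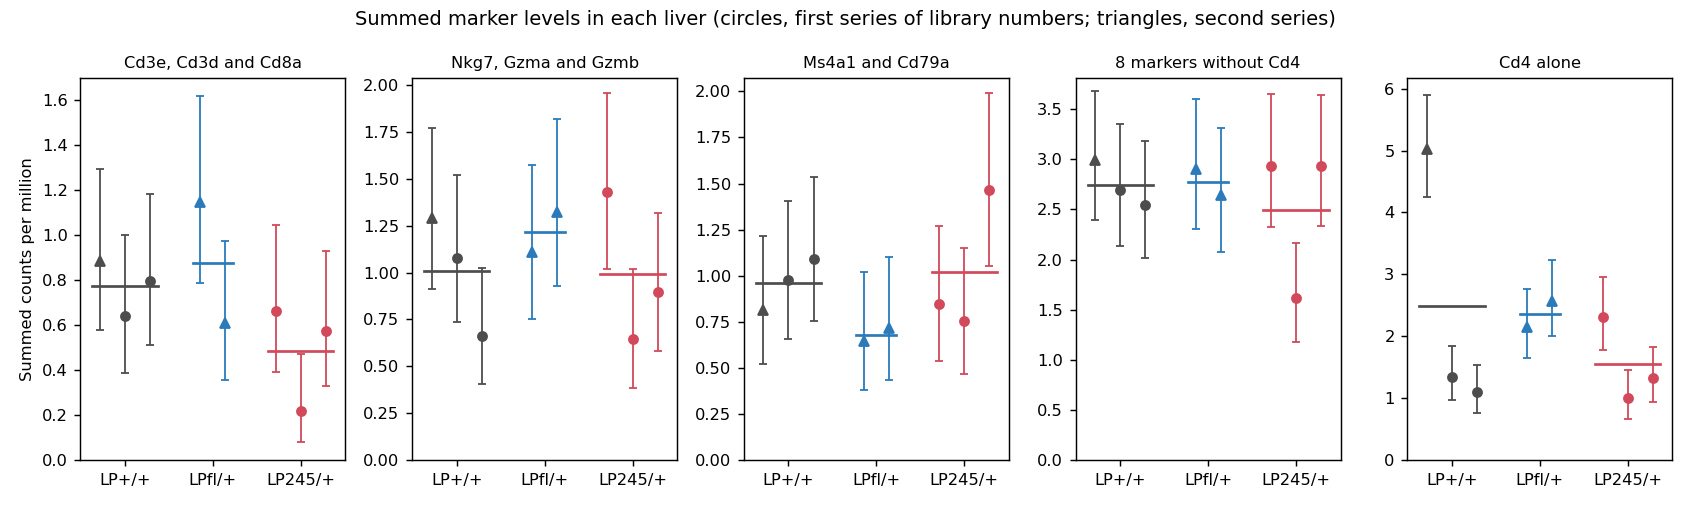
Summed level of related markers in each liver in CPM (vertical axes, starting at 0 and differing between panels), by genotype, with exact Poisson 95% intervals and lines at the group means. The sum of the 8 markers without Cd4 lies between 2.55 and 2.99 in 7 livers and at 1.62 in LP245/+ replicate 2.

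Pairs of markers for 1 cell type showed low correlations from liver to liver. Over the 8 livers, Pearson's r was 0.32 between Cd3e and Cd3d and -0.11 between Ms4a1 and Cd79a, on log2 levels that share library and depth and rest on few counts. The 5 genes most like the mean of Cd3e and Cd3d were Fsbp (r = 0.959), Gm43389 (0.947), Gm6939 (0.942), Pkd2l2 (0.941) and Ndufb2 (0.937). For the mean of Ms4a1 and Cd79a they were Imp3 (0.964), Etfbkmt (0.936), Sephs2 (0.934), Smim7 (0.927) and Fpgt (0.926). None of the 10 belongs to a lymphocyte list used here, and these values are the highest of 16496 genes over 8 points.

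Of the other genes of the T cell receptor and of T cells, 14 of 25 passed the filter, and their median level was 0.0909 CPM per kilobase. Of these, 1 was higher at an unadjusted p under 0.05 in LP245/+ against LP+/+ and 1 in LPfl/+ against LP+/+ (background 3.55% and 4.22%), 0 were lower in either (2.38% and 2.67%), and 0 moved past it in LP245/+ against LPfl/+. That gene was Lck in both cases, the kinase that starts receptor signalling, with a log2 fold change of 0.84 (SE 0.37; edgeR adjusted p = 0.831) and of 0.90 (SE 0.40; edgeR adjusted p = 0.721). These 2 comparisons share the LP+/+ livers, and without LPfl/+ replicate 1 the second was 0.24. The T cell genes with the most counts were Zap70, a kinase of the same pathway, at 261 to 410 counts a liver, and Themis, a T cell development gene, at 33 to 350. Zap70 had a log2 fold change of -0.01 (SE 0.18) in LP245/+ against LP+/+, and Themis of -1.21 (SE 0.72). Their mean levels, 3.80 CPM per kilobase for Zap70 and 0.395 for Themis, were above the list median. Whether their reads came from T cells was not tested. Median log2 fold changes of the list were 0.06, -0.10 and 0.09.

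Among NK cell and cytotoxic genes, 10 of 20 passed the filter. In LP245/+ against LP+/+, 1 was higher and 1 lower at an unadjusted p under 0.05 (background 3.55% and 2.38%), and in LPfl/+ against LP+/+ 0 were either. In LP245/+ against LPfl/+, 0 were higher and 1 lower, where 4.44% of all genes were lower. Klrk1, the activating receptor NKG2D and the NK gene with the most counts at 22 to 74 a liver, had a log2 fold change of -0.92 (SE 0.25; edgeR adjusted p = 0.795) against LP+/+ and -1.18 (SE 0.28; edgeR adjusted p = 0.362) against LPfl/+. Klrd1, which encodes CD94, a chain of other NK cell receptors, had 1.85 (SE 0.77; edgeR adjusted p = 0.818) against LP+/+, and 2.68 without LP+/+ replicate 2. The 2 receptor genes thus had opposite signs in LP245/+, and neither passed the adjusted threshold. Il2rb, a receptor chain for interleukins that sustain NK cells, had 15 to 52 counts and a log2 fold change of -0.09 (SE 0.42). The list medians were 0.46, 0.67 and -0.21, and 1 of 10 genes was below 0 in LPfl/+ against LP+/+, where 50.2% of all genes were. Summed over the 20 genes, LPfl/+ replicate 1 was at 10.6 CPM and replicate 2 at 6.18. The LP+/+ livers were at 5.86 to 7.34, so only 1 LPfl/+ liver was above them. The list median without that liver was not computed.

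B cell genes passed the filter in 16 of 17 cases. At an unadjusted p under 0.05, 0 were higher and 1 lower in LP245/+ against LP+/+ (background 3.55% and 2.38%), 1 higher and 3 lower in LPfl/+ against LP+/+ (4.22% and 2.67%), and 1 higher and 1 lower in LP245/+ against LPfl/+ (4.07% and 4.44%). The gene in LP245/+ against LP+/+ was Ly6d, with a log2 fold change of -1.27 (SE 0.53; edgeR adjusted p = 0.824), which was -0.50 without LP+/+ replicate 2. In LPfl/+ against LP+/+, Spib, a transcription factor of B cells and plasmacytoid dendritic cells, had -1.86 (SE 0.42; edgeR adjusted p = 0.697), and Pax5, the factor that sets B cell identity, had -1.12 (SE 0.45). Cd79b, the partner chain of Cd79a, had -0.92 (SE 0.30), while Cr2, the complement receptor CD21, had 0.64 (SE 0.27). The smallest edgeR adjusted p of any gene in that comparison was 0.697. Against LPfl/+, LP245/+ livers had 1.41 for Spib (SE 0.43) and -0.64 for Bank1 (SE 0.23), a B cell adaptor. There the smallest edgeR adjusted p of any gene was 0.0818. Without LPfl/+ replicate 1 the 2 values were 1.72 for Spib and -0.29 for Bank1. The B cell genes with the most counts were Bank1 at 90 to 187 a liver and Blnk, another adaptor, at 47 to 84. In LP245/+ against LP+/+, 14 of 16 B cell genes were below 0, against 49.4% of all genes, with a list median of -0.30. Below 0 in the same comparison were also 12 of 12 Kupffer cell and macrophage genes (median -0.18) and 4 of 5 erythroid genes (median -0.34), whose part in the B cell values was not tested. Medians in the other comparisons were -0.26 and -0.08, and Ms4a1 and Cd79a were above 0 in LP245/+ against LP+/+.

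Of the plasma cell genes, 4 of 6 passed the filter and 0 had an unadjusted p under 0.05 in any comparison. Derl3, which encodes a protein of the endoplasmic reticulum, had 30 to 265 counts a liver and Jchain, the joining chain of secreted antibodies, 38 to 135.

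Chemokines that draw lymphocytes passed the filter in 7 of 10 cases. Cxcl9, an interferon-induced ligand that draws activated T and NK cells, had 127 to 590 counts a liver and a log2 fold change of 1.09 (SE 0.43; edgeR adjusted p = 0.704) in LPfl/+ against LP+/+ and -1.24 (SE 0.43; edgeR adjusted p = 0.484) in LP245/+ against LPfl/+. LPfl/+ replicate 1 had the 590 counts and LPfl/+ replicate 2 had 218, within the 138 to 306 of the LP+/+ livers, and without LPfl/+ replicate 1 the 2 log2 fold changes were 0.18 and -0.34. Cxcl10, a ligand of the same receptor, had -0.90 (SE 0.39; edgeR adjusted p = 0.561) in LP245/+ against LPfl/+. Cxcl12, a homeostatic chemokine and the most counted at 5459 to 6803, had 0.02 (SE 0.10) in LP245/+ against LP+/+. In that comparison 0 of 7 chemokines had an unadjusted p under 0.05.

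Receptors that guide lymphocytes passed the filter in 10 of 11 cases. S1pr1, which lets lymphocytes leave tissue and is also an endothelial gene, had 1824 to 3135 counts a liver and a log2 fold change of -0.38 (SE 0.12; edgeR adjusted p = 0.795) in LP245/+ against LP+/+ and -0.36 (SE 0.13; edgeR adjusted p = 0.508) against LPfl/+. It was the only receptor of the list with an unadjusted p under 0.05. Itgal, the integrin chain of LFA-1, had 177 to 380 counts and a log2 fold change of -0.31 (SE 0.21) in LP245/+ against LP+/+. None of the T cell, NK cell, B cell, plasma cell, chemokine or homing genes was called at the cutoff in any of the 3 comparisons.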

How the data were processed

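Livers of 8 male mice were analysed from counts of reads per gene, which the authors deposited without normalization. Per the study's methods, RNA of flash-frozen liver was prepared with TRIzol, made into TruSeq stranded libraries, sequenced as paired 76-bp reads on a HiSeq4000, aligned to GRCm38 with STAR and counted by STAR on a GENCODE annotation, whose release and strand setting are not given in the sources used here. The counts covered 49585 genes, of which 49326 were given symbols from GENCODE M21 (GRCm38), and 0 columns were left without a sample. The depth was 26304526 to 31370714 counts per liver, at which 3 counts correspond to 0.0993 to 0.110 CPM.

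Genotypes were compared with edgeR 4.0.16 in R 4.3.3 (TMM, filterByExpr by genotype, quasi-likelihood F test, all 8 livers in 1 fit), with Benjamini-Hochberg adjustment over 16496 genes. Genes were called at a log2 fold change of 1 or more in either direction with an adjusted p no higher than 0.05, after the study's cutoff. Levels are CPM, counts divided by the TMM-scaled library size, divided by union exon length in kilobases where genes are compared. Counts and sums were given exact Poisson 95% intervals, which cover counting error only. The fit was tested on simulated data before use. DESeq2 1.42.0, limma 3.58.1 (as part of edgeR), Python 3.11.15, SciPy 1.17.1 and matplotlib 3.10.9 were also used.

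The 9 markers, the 15 further gene lists and the tests were chosen with earlier results of these data known. Named beside the markers were list genes with an unadjusted p under 0.05, the 2 genes per list with the highest mean count, and the 5 genes most like each of 2 marker pairs. Alternatives covered DESeq2, other scalings, no filter, a minimum of 10 counts in each liver, fits of 2 groups alone, a block for replicate number, a covariate for library series, and each liver left out in turn. Replicate numbers showed no sign of pairing the livers, and no 2 libraries were alike within sampling noise (chi-square per gene 19.9 to 86.2 over 28 pairs).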

Additional observations from a re-analysis of the deposited data

How the results depend on the processing

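The markers other than Cd4 had 1 to 29 counts per liver, and each group had 2 or 3 livers. For Cd4, the chi-square between livers of 1 genotype was 26.8 times what counting error gives. The number of markers called was 0 in every alternative run. In LPfl/+ against LP+/+, DESeq2 gave no adjusted p to Cd3e, Cd3d, Cd8a and Gzma, which could therefore not be called. In LP245/+ against LPfl/+ the same held for every marker but Cd4 and Ms4a1. Of 256 refits of single markers, 224 kept their direction and their side of the cutoff, 32 changed sign and 0 passed the cutoff.

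In LP245/+ against LP+/+, 1 gene was called in all, and 20 without the filter, 3 with the series as a covariate, 10 with DESeq2 and 0 to 5 with 1 liver left out. In LPfl/+ against LP+/+, 0 genes were called, and 14 without the filter, 3 with the series, 9 with DESeq2 and 0 to 59 with 1 liver left out, the highest without LP+/+ replicate 1. In LP245/+ against LPfl/+, 0 were called, and 122 without the filter, 51 with only the 2 groups, 10 with the series, 56 with DESeq2 and 0 to 3 with 1 liver left out.

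Markers with an unadjusted p under 0.05 rose from 0 to 1 with the series as a covariate, Cd4 in both cases, at a log2 fold change of -1.09 in LPfl/+ against LP+/+ and 1.43 in LP245/+ against LPfl/+. With 1 liver left out they ran from 0 to 1 in LPfl/+ against LP+/+, Cd4 without LP+/+ replicate 1 and Cd3e (1.63) without LPfl/+ replicate 2. The median log2 fold change of the markers was -0.69 and -0.61 in LP245/+ against LP+/+ and LPfl/+ under the filter of 10 counts, which left 1 marker, Cd4, and 0.045 against LPfl/+ with the series. With 1 liver left out it ran from -0.62 to 0.12, -0.25 to 0.040 and -0.67 to 0.022 in the 3 comparisons.

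Signs changed with the series as a covariate in LP245/+ against LP+/+ for Cd4 (0.34) and Ms4a1 (-0.18), in LPfl/+ against LP+/+ for Cd8a (0.43), Gzmb (-0.60) and Ms4a1 (0.073), and in LP245/+ against LPfl/+ for Cd4 (1.43), Nkg7 (-0.027), Gzma (0.045), Gzmb (0.50) and Ms4a1 (-0.25). That last comparison then rests on the LP+/+ livers as the only link between the series. LP+/+ replicate 1 is the only LP+/+ liver of the second series, so with the covariate LPfl/+ was in effect set against that liver alone. LP245/+ against LP+/+ then gave nearly the values found without that liver, for Cd4 0.34 in both. Scaling by library totals gave Cd8a 0.044 in LPfl/+ against LP+/+. With 1 liver left out, signs changed in LP245/+ against LP+/+ for Cd4 (-1.09 to 0.34), Ms4a1 (-0.66 to 0.37), Cd79a (-0.071 to 0.28) and Nkg7 (-0.62 to 0.49), in LPfl/+ against LP+/+ for Cd4 (-0.44 to 0.95), Gzmb (-0.22 to 0.65), Nkg7 (-0.12 to 0.30) and Cd8a (-0.86 to 0.50), and in LP245/+ against LPfl/+ for Cd8a (-1.52 to 0.11), Nkg7 (-0.67 to 0.44), Gzma (-0.62 to 0.018) and Ms4a1 (-0.11 to 0.91). The cause of the differences between livers was not tested. The 33 differences of other list genes at an unadjusted p under 0.05 were picked by that p in these same data. Keeping their sign with each liver left out, as all 33 did, is therefore no support, and 4 stayed under that p each time.

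The replicate numbers showed no sign of pairing the livers, since deviations of same-numbered livers correlated from -0.107 to 0.0621 over 7 pairs. The deviations are from means of few livers, so the check cannot settle whether the livers were paired. With the replicate number as a block, 0 genes were called in LP245/+ against LP+/+, and signs changed for Ms4a1 (-0.070) there and for Cd8a (0.12) and Nkg7 (-0.23) in LPfl/+ against LP+/+.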

Other observations

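Markers of other cells in the liver gave a background to the lymphocyte genes, and 0 genes of these lists were called at the cutoff in any of the 3 comparisons. Of 12 Kupffer cell and macrophage genes, 12 had a log2 fold change below 0 in LP245/+ against LP+/+, where 49.4% of all genes were, with a median of -0.18 and 0 at an unadjusted p under 0.05 (2.38% of all genes were lower at that threshold). In LP245/+ against LPfl/+, 5 were lower at an unadjusted p under 0.05 by edgeR (4.44% of all genes), the complement genes C1qa (-0.41), C1qb (-0.45) and C1qc (-0.49), the lysosomal gene Cd68 (-0.38) and the complement receptor Vsig4 (-0.33). Without LPfl/+ replicate 1 they were -0.16, -0.19, -0.23, -0.24 and -0.12 in that order. Series and genotype cannot be told apart in this comparison. Clec4f had 2305 to 3755 counts a liver and Cd5l 2237 to 3895. Of 10 pan-leukocyte genes, 7 were below 0 in LP245/+ against LP+/+, with Rac2 (-0.44) past the unadjusted threshold. Against LPfl/+ 10 were below 0, where 49.2% of all genes were. Summed over these 10 genes, LPfl/+ replicate 1 was at 207 CPM. LPfl/+ replicate 2, at 165, lay within the 161 to 178 of the LP245/+ livers. Lcp1 had 2664 to 3956 counts and Ptprc, which encodes CD45, 444 to 754.

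Of 8 monocyte and neutrophil genes, 6 passed the filter, and Ly6g was at 0 in every liver. S100a9, a neutrophil protein, had a log2 fold change of 0.69 in LPfl/+ against LP+/+ and -0.71 in LP245/+ against LPfl/+ at an unadjusted p under 0.05, and Ccr2 and Csf3r had the most counts. Among 8 dendritic cell genes, Siglech, of plasmacytoid dendritic cells, had 0.61 in LP245/+ against LP+/+, and Zbtb46 and Clec9a had the most counts. Erythroid genes, which mark blood left in the tissue, summed to 489 to 683 CPM in LP+/+, 345 to 450 in LPfl/+ and 324 to 643 in LP245/+. In LPfl/+ against LP+/+, 3 of 5 were lower at an unadjusted p under 0.05 (2.67% of all genes), Hba-a1 (-0.82), Hba-a2 (-0.85) and Hbb-bt (-0.86), and Hba-a1 had -0.57 in LP245/+ against LP+/+. Hbb-bs and Alas2 had the most counts of the list. The part of blood in the lymphocyte markers was not tested.

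Hepatocyte genes differed at an unadjusted p under 0.05 only for Hnf4a (0.39 in LP245/+ against LPfl/+), endothelial genes only for Cdh5 (-0.39 in LPfl/+ against LP+/+) and stellate cell genes only for Reln (0.37 in LP245/+ against LPfl/+), while 0 of the 5 cholangiocyte genes tested did. The genes with the most counts in these lists were Alb and Ttr, Stab2 and Kdr, Reln and Dcn, and Spp1 and Sox9.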
